A study of Homo sapiens with 12 samples.

Results

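The interaction of MITF knockdown with interferon gamma (IFNγ) was measured in 624Mel, an established human melanoma cell line, as the difference between the IFNγ effect in MITF-depleted cells and the IFNγ effect in control cells. All 12 RNA sequencing libraries of the series entered the comparison, 3 in each of 4 conditions. The cells were reverse-transfected with a control siRNA (siCTRL) or an siRNA against MITF (siMITF), IFNγ was added to the medium at 5 ng/mL after 24 h or left out, and all cells were harvested 48 h after transfection, so that treated cells had 24 h of IFNγ. The conditions are called siCTRL, siCTRL + IFNγ, siMITF and siMITF + IFNγ. They share the line, the transfection and the culture time, and the results therefore describe 1 line with 1 siRNA treatment per target. The labels do not say whether replicates came from separate cultures. The paper's methods describe replicates as biological for its experiments in general, without naming these libraries. If they shared a culture, the p-values measure technical spread.

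IFNγ binds its receptor on the cell surface, and the JAK kinases attached to the receptor activate transcription factors that bind gamma-activated sites (GAS) in DNA. These induce IRF1, which together with other factors acts on interferon-stimulated response elements (ISRE) of a second wave of genes. These genes serve antigen presentation, chemokine signalling, complement and intracellular defence. MITF is the lineage transcription factor of melanocytes and of pigmented melanoma, binds E-box and M-box motifs, and maintains pigment and melanosome genes. The question was which genes responded to IFNγ more, or less, once MITF was depleted than the separate effects of siMITF and IFNγ add up to.

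The deposited table held TPM, a length-corrected share of transcripts scaled to the same sum per library, for 40173 gene IDs of Ensembl. Of these, 12634 averaged 2 TPM or more in siCTRL, siCTRL + IFNγ or siMITF. These IDs were tested with limma on log2(TPM + 1). The interaction is given in log2 units: a value of 0 means that both log2 effects add up, a positive value that the log2 level in siMITF + IFNγ exceeded this sum, and a negative value that it fell short. The number of reads behind a TPM value is unknown. Libraries summed to between 975336 and 982632 TPM, and mitochondrially encoded genes took between 7.42% and 16.9%, with the lowest share of each condition in replicate number 2. MITF itself had 187, 229 and 217 TPM in siCTRL, 158, 246 and 243 in siCTRL + IFNγ, 36.0, 49.7 and 41.7 in siMITF, and 37.5, 55.1 and 51.3 in siMITF + IFNγ. Every siMITF library was below every siCTRL library, and the interaction of MITF was 0.16 ± 0.26 (SE, limma adjusted p = 0.991). The melanocytic markers MLANA, PMEL, DCT, TYR, TYRP1 and SOX10 were detected in every library, from 15.3 TPM for DCT to 5430 TPM for PMEL. Of 11 markers of other cell types, CD68 and LYZ passed the minimum. The T cell marker CD3E was listed at 0 in all libraries, and the leukocyte marker PTPRC lay between 0.144 and 0.732 TPM. The summed level of the 11 markers ran from 59.1 to 96.8 TPM in siCTRL libraries with or without IFNγ and from 26.7 to 41.3 in siMITF libraries, most of it CD68, and its part in the results was not tested.

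In siMITF cells, IFNγ raised several genes by more log2 units of TPM + 1 than in siCTRL cells. Among them were the T cell-attracting chemokines CXCL9 and CXCL10, the cytokine TNFSF13B, the invariant chain CD74 and the guanylate-binding protein GBP4. For CXCL10, which was near 0 without IFNγ, this depended on the 1 added to each TPM value. A smaller number of genes, among them the stress gene CHAC1 and CST2, had a negative interaction. In RNA of whole cultures, fewer responding cells and less RNA per cell cannot be told apart. Together 82 IDs passed a limma adjusted p of 0.05 for the interaction, 0.649% of those tested. Of these, 57 were positive (0.451%) and 25 negative (0.198%), with absolute values from 0.556 to 2.45 and from 0.508 to 2.91. An absolute interaction of at least 1 was reached by 32 of the positive and 10 of the negative IDs. The median over all tested IDs was -0.0348, and 41.8% were positive. At an unadjusted p under 0.05 there were 935 IDs. In a fit blocked on replicate number the count was 248, with 150 positive (1.19%) and 98 negative (0.776%), and it included all 82. It fell to 50 without siMITF replicate 3, to 52 without siCTRL replicate 3 or siMITF replicate 2, to 54 without siCTRL + IFNγ replicate 3, and to 24 without the 4 libraries numbered 2. At the threshold, the carbohydrate sulfotransferase CHST2 (interaction -0.80, limma adjusted p = 0.0495) was just inside, and the integrin subunit ITGB8 (0.81, limma adjusted p = 0.0502) and the cholesteryl ester hydrolase NCEH1 (0.64, limma adjusted p = 0.0510) were just outside.

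**Figure D1:**
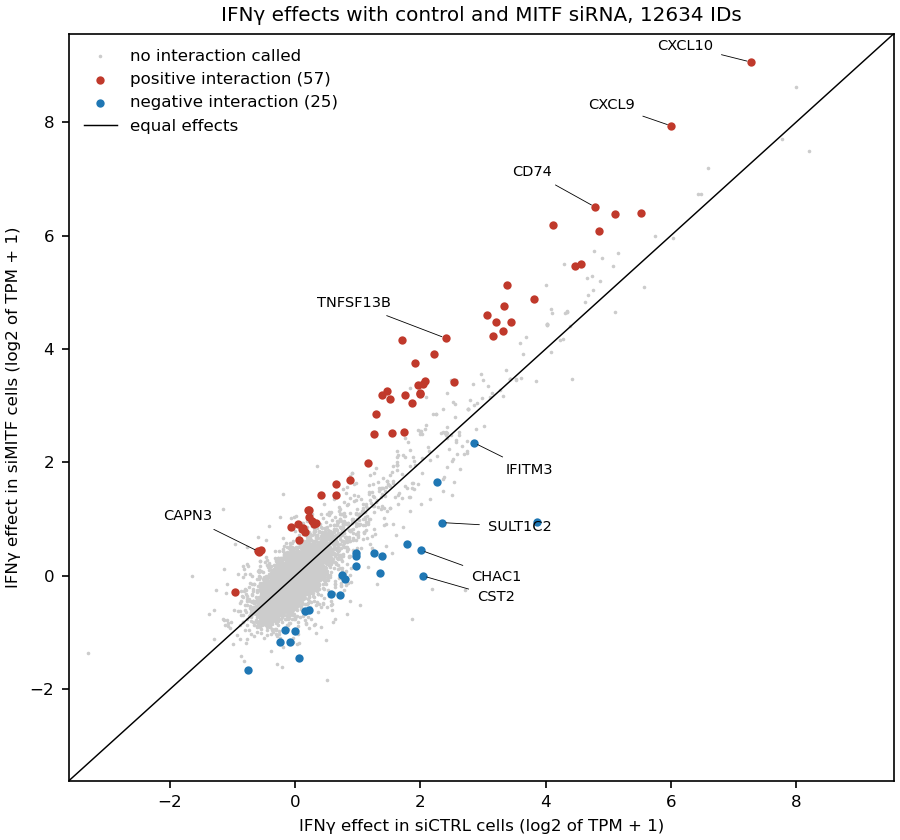
Each point is 1 of 12634 tested Ensembl IDs, with the IFNγ effect in siCTRL cells on the horizontal axis and in siMITF cells on the vertical axis, both in log2 of TPM + 1. Red points mark the 57 positive and blue points the 25 negative interactions. The distance from the line of equal effects is the interaction. CXCL10 and CXCL9 are the red points with the highest values, and CST2 and CHAC1 lie near 0 on the vertical axis.

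The positive IDs were mostly genes that IFNγ raised with either siRNA. Of the 57, 43 rose with IFNγ in siCTRL and in siMITF cells (limma adjusted p under 0.05 for each effect), 10 passed as higher only in siMITF cells, 3 were lower in siCTRL and higher in siMITF cells, and 1 was lower in both. Over all tested IDs, 6.48% were higher and 6.10% lower with IFNγ in siCTRL cells, and 7.49% higher and 12.2% lower in siMITF cells. In 37 of the 57, all 3 siMITF + IFNγ libraries lay above the 9 other libraries, against 4.42% of all IDs. On the TPM scale the combined mean exceeded the sum of the single effects in 52 of the 57 and in 41.6% of all tested IDs. Both counts use the contrast that chose the 57 and are descriptions. ATOH8 (departure of -10.3 TPM), CEACAM1 (-1.5 TPM) and ISG20, described below, were among the positive IDs that fell short of the sum on the TPM scale. Most IDs raised by IFNγ were not called: of 306 with an average IFNγ effect of at least 1 log2 unit and a limma adjusted p under 0.05, 40 were called positive and 7 negative, 69.3% had a positive sign, and the median was 0.169. The average effect of IFNγ and the interaction use the same 12 libraries but independent contrasts.

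Chemokines and cytokines had some of the largest values. CXCL9, CXCL10 and CXCL11, the ligands of CXCR3, a chemokine receptor of T cells, lie side by side on chromosome 4 (GRCh38, GENCODE 44, from 76001275 to 76041415). CXCL9 had 0.235, 0.219 and 0.343 TPM in siCTRL, 70.7, 97.4 and 75.3 with IFNγ, 0.210, 0.258 and 0.164 with siMITF, and 332, 288 and 268 in siMITF + IFNγ. The combined libraries were all above the siCTRL + IFNγ libraries, while both untreated conditions overlapped near 0. The interaction was 1.93 ± 0.17 (SE, limma adjusted p = 1.9e-04). CXCL10 had at most 0.0414 TPM in siCTRL, 165, 167 and 144 with IFNγ, 0.580, 0.481 and 0.612 with siMITF, and 1047, 748 and 729 in the combination. No library of the combination overlapped another condition, and the interaction was 1.78 ± 0.18 (SE, limma adjusted p = 3.4e-04). Because CXCL10 was near 0 without IFNγ, its value depended on the pseudocount, and with 0.1 in place of 1 it was -0.03. CXCL11 had 13.6, 17.3 and 11.6 TPM with IFNγ in siCTRL cells and 38.5, 35.1 and 28.4 in siMITF cells, with up to 0.231 TPM in untreated libraries. These ranges did not overlap, and the interaction was 1.07 ± 0.21 (SE, limma adjusted p = 0.0403). It stayed under 0.05 without siCTRL + IFNγ replicate 2 or siMITF + IFNγ replicate 3 and rose to as much as 0.114 without each of the 10 other libraries. The call was also lost with a pseudocount of 0.5 (limma adjusted p = 0.148) and of 0.1 (0.984), where the interaction was 0.395.

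TNFSF13B encodes BAFF, a survival factor of B cells (chromosome 13 from 108251240 to 108308484). Its TPM were 9.39, 8.31 and 7.57 in siCTRL, 43.0, 52.0 and 51.9 with IFNγ, 3.92, 3.14 and 3.33 with siMITF, and 86.1, 75.4 and 79.9 in siMITF + IFNγ. It was lowest in siMITF and highest in the combination, with no overlap between any conditions, and the interaction was 1.79 ± 0.15 (SE, limma adjusted p = 1.8e-04). The cytokine IL32 had 4.74, 5.09 and 4.07 TPM with IFNγ in siCTRL cells and 26.5, 24.5 and 24.7 in siMITF cells, with an interaction of 1.45 ± 0.14 (SE, limma adjusted p = 3.4e-04).

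Chemokines outside the CXCR3 group were not called without the replicate block, and CCL2 and CXCL1 had negative values. CCL2, which attracts monocytes, had 1.46, 2.07 and 1.79 TPM in siCTRL, 15.3, 17.1 and 12.7 with IFNγ, 45.9, 45.8 and 35.9 with siMITF, and 158, 134 and 117 in the combination. The conditions did not overlap, and siMITF + IFNγ was highest, but in log2 units the IFNγ effect was 2.53 in siCTRL and 1.66 in siMITF cells. The interaction of -0.87 ± 0.20 had a limma adjusted p of 0.0982 without and 0.0118 with the replicate block. Its sign changed with a pseudocount of 5. On the TPM scale the gain of CCL2 with IFNγ was larger in siMITF than in siCTRL cells, the opposite direction. The neutrophil attractant CXCL1 had an interaction of -0.81 (limma adjusted p = 0.108, and 0.0237 with the block). In all, 14 of the 25 chemokine and cytokine genes listed were tested, 5 were positive and 0 negative, and the median was 0.195. With the block, 5 were positive and 2 negative. Over all tested IDs, 0.451% were called positive and 0.198% negative, and 1.19% and 0.776% with the block.

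Antigen presentation genes had positive values with few calls. HLA-B presents peptides to CD8 T cells as a class I heavy chain (chromosome 6 from 31353872 to 31367067). It had 2.80, 3.56 and 2.41 TPM in siCTRL, 73.2, 97.7 and 87.3 with IFNγ, 4.45, 4.07 and 3.90 with siMITF, and 204, 232 and 246 in the combination. The conditions did not overlap, and the interaction was 1.00 ± 0.18 (SE, limma adjusted p = 0.0254). The call held without siCTRL replicate 3, siCTRL + IFNγ replicates 1 or 2, siMITF replicate 1 or siMITF + IFNγ replicate 1, and was lost without each of the 7 other libraries, with an adjusted p of at most 0.0877. HLA-F, a non-classical class I gene, had 13.6, 16.7 and 15.4 TPM with IFNγ in siCTRL cells and 27.8, 28.3 and 27.2 in siMITF cells (interaction 1.34 ± 0.26 (SE), limma adjusted p = 0.0403), and its call held only without siCTRL replicate 2 or siMITF replicate 1, with up to 0.122 without the others. The calls of HLA-B and HLA-F were also lost with a pseudocount of 0.5 or 0.1 and without a filter on low values. PSMB10, a catalytic subunit of the immunoproteasome that cuts proteins into peptides, had 49.4, 50.5 and 48.5 TPM with IFNγ in siCTRL and 63.5, 75.7 and 82.8 in siMITF cells, with an interaction of 0.81 ± 0.13 (SE, limma adjusted p = 0.0110).

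Other class I genes were not called without the replicate block. For the peptide transporter TAP1 the interaction was 0.70 (limma adjusted p = 0.0805, and 0.00935 with the block), and for B2M, the light chain of class I, it was 0.55 (0.178, and 0.0220 with the block). Values were near 0 for the classical gene HLA-C (0.18, limma adjusted p = 0.919) and the non-classical HLA-E (-0.05). HLA-E had 151, 189 and 178 TPM with IFNγ in siCTRL and 151, 186 and 186 in siMITF cells, which overlapped. Of 16 class I genes tested, 2 were called positive and 0 negative, 14 had a positive sign, and the median was 0.355. All 7 immunoproteasome genes had a positive sign, 1 was called, and the median was 0.295. Among all tested IDs, 41.8% had a positive sign and 0.451% were called positive. Reads of HLA genes can be split between near-identical copies, so single HLA values are uncertain.

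CD74 encodes the invariant chain, which guides class II molecules to the peptide-loading compartment (chromosome 5 from 150401637 to 150412969). It had 0.649, 0.779 and 0.490 TPM in siCTRL, 39.4, 50.7 and 43.4 with IFNγ, 0.987, 0.932 and 0.513 with siMITF, and 168, 152 and 168 in the combination. The untreated libraries overlapped and the treated ones did not, with an interaction of 1.71 ± 0.18 (SE, limma adjusted p = 5.0e-04). CIITA, the class II transactivator, had 4.74, 7.49 and 5.09 TPM with IFNγ in siCTRL and 10.8, 13.7 and 12.9 in siMITF cells. These did not overlap either, but the interaction of 1.08 ± 0.22 had a limma adjusted p of 0.0510, and 0.0160 with the block. The 5 other class II pathway genes tested under a symbol, RFX5, RFXAP, RFXANK, CTSS and IFI30, had values between -0.18 and 0.05. Under their symbols, 11 of the 18 genes listed were under the minimum. IDs without a symbol were not assigned to genes, and any class II genes among them are not counted here.

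Among ligands that restrain T cells, CD274, the gene of PD-L1 (chromosome 9 from 5450503 to 5470566), had 1.80, 1.04 and 1.99 TPM in siCTRL, 8.46, 9.50 and 9.85 with IFNγ, 0.636, 0.508 and 0.618 with siMITF, and 15.8, 11.4 and 14.3 in the combination. It was lowest in siMITF and highest in siMITF + IFNγ with no overlap. The log2 difference between the siRNAs was -0.70 without and 0.52 with IFNγ, an interaction of 1.22 ± 0.21 (SE, limma adjusted p = 0.0202). The call held without siCTRL replicate 2, siCTRL + IFNγ replicate 2, siMITF + IFNγ replicate 1 or siMITF + IFNγ replicate 2, and the adjusted p was between 0.05 and 0.0695 without each of the 8 other libraries. CEACAM1, an adhesion receptor that inhibits lymphocytes, had 61.3, 59.6 and 59.5 TPM in siCTRL, 122, 148 and 140 with IFNγ, 24.2, 26.2 and 22.7 with siMITF, and 93.8, 102 and 103 in the combination (interaction 0.82 ± 0.12 (SE), limma adjusted p = 0.0069). TNFRSF14, the receptor HVEM, had 77.7, 87.6 and 79.7 TPM with IFNγ in siCTRL cells, near the 70.6, 72.4 and 69.4 without it, and went from 13.6, 13.3 and 12.4 in siMITF to 25.8, 31.6 and 34.9 in the combination (interaction 0.96 ± 0.14 (SE), limma adjusted p = 0.0072). Both genes thus stayed below their siCTRL + IFNγ level in the combination. The ID ENSG00000273936, without a symbol, had nearly the values of TNFRSF14 and may share its reads. IDO1, which degrades tryptophan, had 85.9, 94.9 and 78.9 TPM with IFNγ in siCTRL and 133, 128 and 106 in siMITF cells, and its interaction of 0.31 was not called (limma adjusted p = 0.814). Of 10 checkpoint and tryptophan genes tested, 3 were positive and 0 negative, with a median of 0.129. Over all tested IDs, 0.451% were called positive and 0.198% negative.

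**Figure D2:**
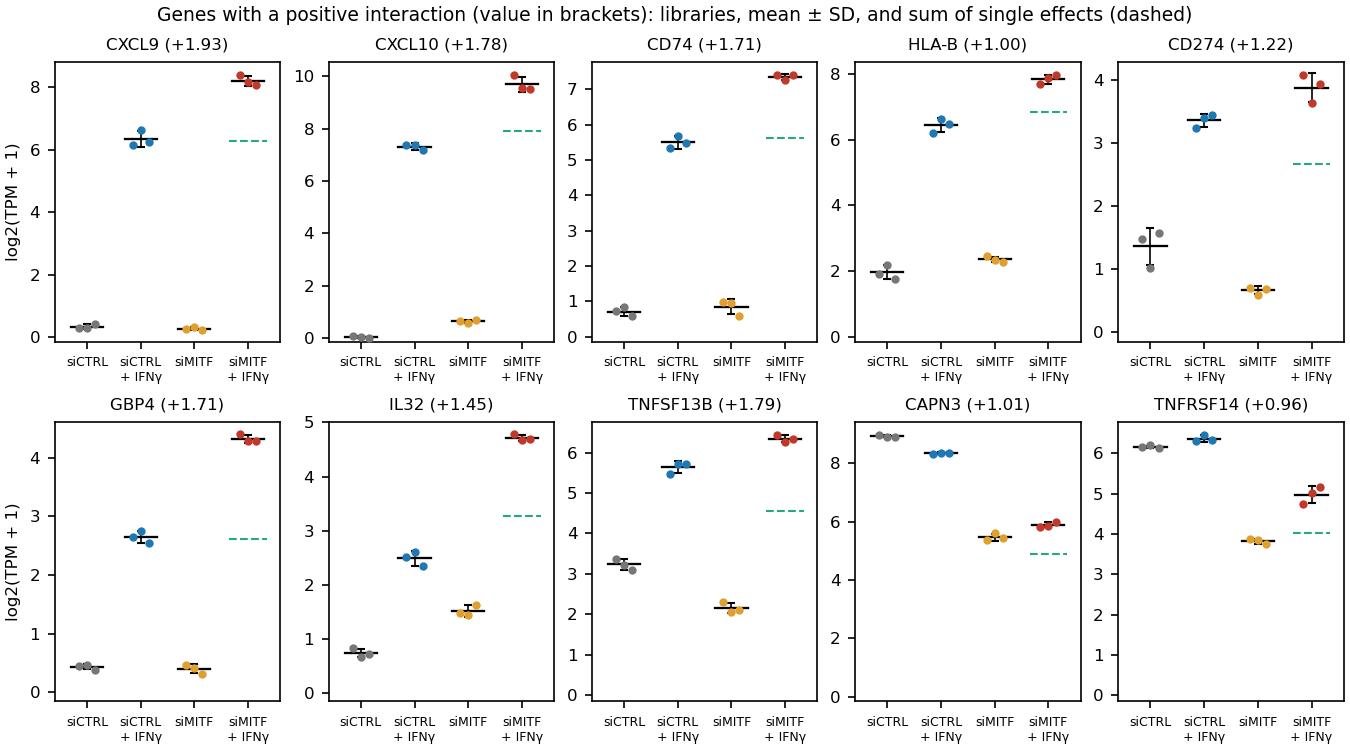
Log2(TPM + 1) of 10 genes with a positive interaction in the 3 libraries of each condition, with the mean and SD (bars). The dashed line at siMITF + IFNγ is the sum of both single log2 effects, and the value beside each name is the interaction. The red points lie above the dashed line in all 10 panels, and for CAPN3 and TNFRSF14 they stay below both siCTRL conditions.

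The list of guanylate-binding proteins (GBP), apolipoproteins L (APOL) and other genes of cell-autonomous defence had the highest median of the 23 gene lists, 0.592 over the 13 genes tested. Guanylate-binding proteins are GTPases that act against intracellular pathogens. GBP4 (chromosome 1 from 89181144 to 89198942) had 0.370, 0.385 and 0.305 TPM in siCTRL, 5.25, 5.74 and 4.85 with IFNγ, 0.381, 0.335 and 0.248 with siMITF, and 20.0, 18.4 and 18.5 in the combination. The untreated conditions overlapped and the treated ones did not (interaction 1.71 ± 0.14 (SE), limma adjusted p = 9.0e-05). GBP2 had 101, 104 and 96.3 TPM with IFNγ in siCTRL and 261, 202 and 192 in siMITF cells, with an interaction of 0.93 (limma adjusted p = 0.0435). Its call was lost without each library but siCTRL replicate 2 and siMITF + IFNγ replicate 3, with an adjusted p of up to 0.137. The GBP2 call was also lost with a pseudocount of 0.5 or 0.1, without a filter on low values and after median centring. The apolipoproteins APOL3 (1.03) and APOL2 (0.99) were also called. APOL2 differed from APOL3 without IFNγ: it had 32.4, 29.5 and 30.5 TPM in siCTRL and 14.5, 14.9 and 13.5 in siMITF, while with IFNγ the siRNAs overlapped, at 86.9, 98.4 and 89.7 and at 78.6, 91.6 and 91.6. GBP1 (0.62), GBP3 (1.11) and GBP5 (0.59) were not called without the block and were called with it, where their limma adjusted p-values were 0.026, 0.0044 and 0.025. GBP1P1, a pseudogene beside them, had an interaction of 1.27 (limma adjusted p = 8.8e-04), and since GBP genes are similar in sequence, reads may be split between them.

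Complement genes gave 3 positive and 0 negative calls among 12 tested, with a median of 0.353, and 5 positive calls with the block. All tested IDs gave 0.451% positive and 0.198% negative calls, and 1.19% positive calls with the block. SERPING1, the inhibitor of the C1 proteases, was listed at 0 in 4 untreated libraries and at most at 0.0144 TPM in the others and had 40.6, 50.6 and 45.7 TPM with IFNγ in siCTRL and 88.5, 77.7 and 86.0 in siMITF cells (interaction 0.87, limma adjusted p = 0.0109). C4B had an interaction of 1.23 (limma adjusted p = 0.0113) and its near-identical neighbour C4A of 1.21 (0.138, and 0.00235 with the block), and these genes cannot be told apart with certainty. The call of C4B was lost with a pseudocount of 0.5 (limma adjusted p = 0.072) or 0.1 (0.783). The central component C3 had 2.09, 3.98 and 3.63 TPM with IFNγ in siCTRL and 7.20, 13.6 and 12.9 in siMITF cells, an interaction of 1.48 (limma adjusted p = 0.0581, and 0.0180 with the block).

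The motifs of interferon-driven factors were searched in promoters from RefSeq (GRCh38.p14, 250 bases before to 50 after the start), which were matched by symbol for 9301 tested genes and for 53 of those called. An ISRE (GAAA repeated after a gap of any 2 bases, on either strand) was in the promoter of 11 of 35 positive genes (31.4%), of 2 of 18 negative genes (11.1%) and of 51 of 173 genes raised by IFNγ on average (29.5%), against 2.78% of all tested. A GAS (TTCNNNGAA) was in 3 of the 35 (8.57%) and 3 of the 18 (16.7%), against 17.3% of the IFNγ-raised genes and 6.24% of all. The ISRE share of all positive genes was close to that of the IFNγ-raised genes. Among the positive genes that IFNγ also raised on average it was higher, with 9 of 21 (42.9%). These sets share genes, and the shares are descriptions. The promoters of the 3 positive genes with the smallest adjusted p are shown with the ISRE in capitals, at chr1:89198893-89199192 on the minus strand for GBP4, chr13:108269379-108269678 on the plus strand for TNFSF13B and chr4:76007460-76007759 on the minus strand for CXCL9. The motif starts 4 bases before the RefSeq transcription start in GBP4, 171 bases before it in CXCL9 and at 19 bases after it in TNFSF13B. The TNFSF13B window lies inside the GENCODE span of the gene, which begins at 108251240, and other starts were not searched.
GBP4: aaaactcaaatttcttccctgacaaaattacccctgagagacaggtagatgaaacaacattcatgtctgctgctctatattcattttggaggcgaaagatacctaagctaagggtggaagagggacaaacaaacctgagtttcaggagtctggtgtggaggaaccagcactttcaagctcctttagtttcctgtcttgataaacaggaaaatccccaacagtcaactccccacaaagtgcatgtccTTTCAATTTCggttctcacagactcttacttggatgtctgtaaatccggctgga
TNFSF13B: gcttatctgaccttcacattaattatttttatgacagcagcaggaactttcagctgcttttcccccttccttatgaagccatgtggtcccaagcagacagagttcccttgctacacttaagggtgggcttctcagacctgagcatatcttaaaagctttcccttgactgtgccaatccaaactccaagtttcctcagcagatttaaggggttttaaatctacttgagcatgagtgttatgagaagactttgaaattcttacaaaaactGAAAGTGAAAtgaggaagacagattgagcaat
CXCL9: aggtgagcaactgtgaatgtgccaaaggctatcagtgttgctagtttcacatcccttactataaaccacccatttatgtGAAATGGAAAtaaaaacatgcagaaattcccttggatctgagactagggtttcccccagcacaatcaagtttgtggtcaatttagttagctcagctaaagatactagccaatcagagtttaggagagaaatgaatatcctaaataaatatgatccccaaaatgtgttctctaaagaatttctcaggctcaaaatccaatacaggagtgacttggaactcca

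The signalling genes upstream of these targets were not called. IRF1 had 76.8, 102 and 85.1 TPM with IFNγ in siCTRL and 134, 170 and 162 in siMITF cells, which did not overlap. Its interaction was 0.59 ± 0.17 (SE, limma adjusted p = 0.229, and 0.0576 with the block). IRF9, the DNA-binding subunit of the ISGF3 complex, reached 0.61 (limma adjusted p = 0.0565, and 0.0125 with the block). STAT3 had -0.24 (limma adjusted p = 0.962). The receptor chains IFNGR1 and IFNGR2 had -0.05 and -0.30, and the kinases JAK1 and JAK2 0.07 and 0.20. None of 11 receptor, JAK and STAT genes, 9 feedback inhibitors and 8 IRF and BATF factors tested was called in the fit without the block. Their medians were -0.049, 0.120 and 0.288.

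Classical type I interferon-stimulated genes showed both signs, 18 positive and 16 negative of 34 tested, with a median of 0.0355. The exonuclease ISG20 was called positive. It had 101, 103 and 94.0 TPM in siCTRL, 157, 165 and 147 with IFNγ, 19.5, 15.8 and 18.9 with siMITF, and 47.8, 51.5 and 51.7 in the combination (interaction 0.78 ± 0.12 (SE), limma adjusted p = 0.0104). On the TPM scale ISG20 gained less with IFNγ in siMITF than in siCTRL cells. The membrane restriction factor IFITM3 was called negative, with 306, 303 and 311 TPM in siCTRL, 2200, 2350 and 2126 with IFNγ, 501, 535 and 540 with siMITF, and 2579, 2689 and 2762 in the combination. It was highest in the combination, and its interaction was -0.51 ± 0.083 (SE, limma adjusted p = 0.0123), with 0.0549 without siMITF replicate 2 and 0.0557 without siMITF replicate 3. On the TPM scale its gain with IFNγ was larger in siMITF than in siCTRL cells, the opposite direction. Its paralogue IFITM2 (-1.07) and the RNA sensor OAS1 (-0.95) were called negative, and SAMD9L (0.97), PLSCR1 (0.52) and IFI6 (0.44) positive, with the block but not without it. In the list of PARP, TRIM and nuclear body genes, the ADP-ribosyltransferase PARP9 was the 1 call among 17 tested (0.88, limma adjusted p = 0.0130).

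**Figure D3:**
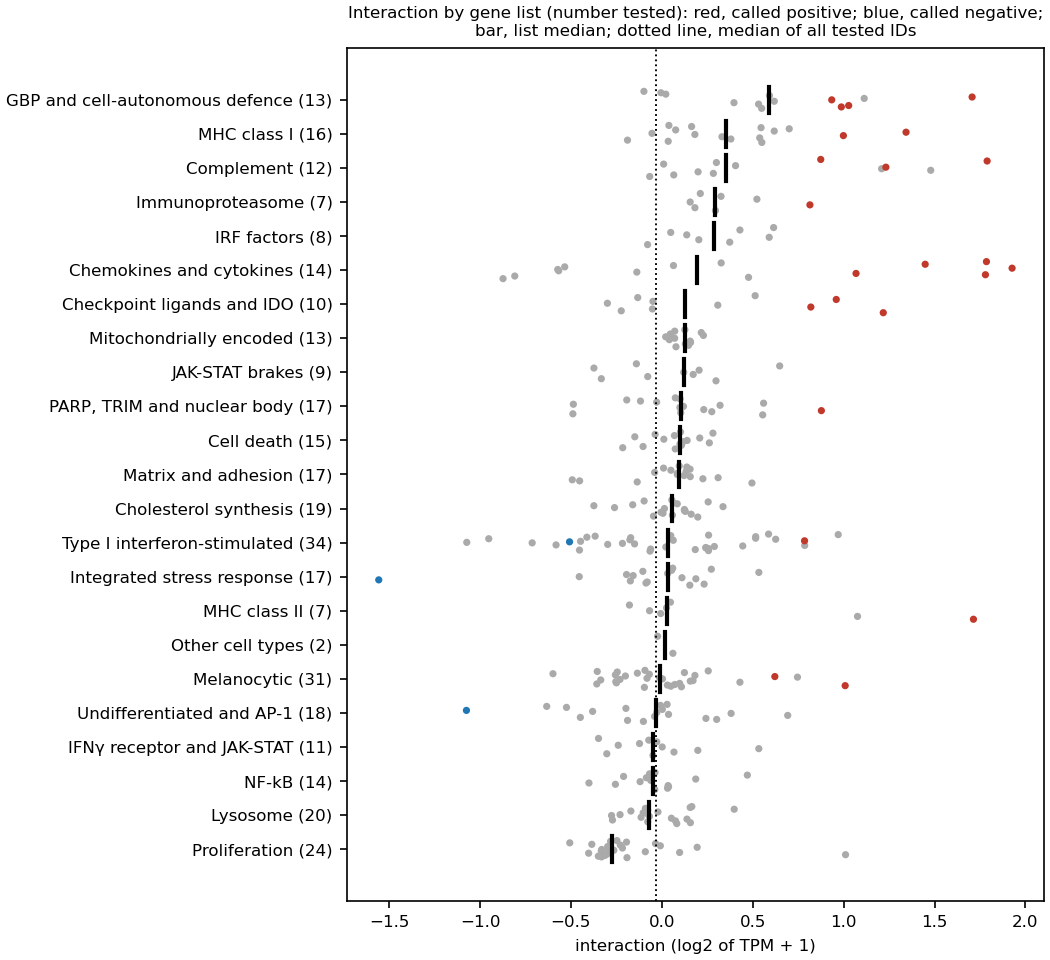
Interactions of the tested members of 23 gene lists (1 point per gene, log2 of TPM + 1), with the list median as a bar and the median of all tested IDs, -0.0348, as a dotted line. Red points were called positive and blue points negative. The list of GBP, APOL and other cell-autonomous defence genes is at the top with 0.592 and the proliferation list at the bottom with -0.273.

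Part of the positive genes were lowered by siMITF without IFNγ, among them CD274, TNFSF13B, HLA-F, PSMB10, APOL2, PARP9 and CEACAM1 described above. Of the 57 IDs, 27 were lower with siMITF in the absence of IFNγ. With IFNγ, 13 of these were still lower, 6 did not pass the test and 8 were higher. Another 25 passed only as higher with IFNγ, and 5 were higher without and with it. Over all tested IDs, siMITF lowered 14.0% without and 14.9% with IFNγ and raised 21.1% and 17.9%. The interaction is also the siMITF effect with IFNγ minus the effect without it. A positive gene that siMITF lowered was therefore lowered less, or raised, with IFNγ by construction, and these counts are descriptions. CAPN3, a calpain protease of muscle and melanocytic cells (chromosome 15 from 42359498 to 42412949), had 506, 478 and 480 TPM in siCTRL, 320, 329 and 329 with IFNγ, 40.1, 47.5 and 42.3 with siMITF, and 55.8, 57.4 and 62.5 in the combination. IFNγ lowered it in siCTRL cells (-0.58) and raised it in siMITF cells (0.43), with no overlap in either pair, and the interaction was 1.01 ± 0.10 (SE, limma adjusted p = 4.0e-04). EEPD1 and RLBP1, a carrier of retinoids, had the same opposite signs and interactions of 1.04 and 0.99. The bHLH factor ATOH8 had 12.6, 12.8 and 12.6 TPM in siCTRL, 35.7, 41.3 and 37.2 with IFNγ, 0.692, 0.970 and 1.27 with siMITF, and 14.6, 17.0 and 16.7 in the combination. It was lowest in siMITF and highest in siCTRL + IFNγ (interaction 1.60 ± 0.16 (SE), limma adjusted p = 3.4e-04). On the TPM scale its gain with IFNγ was smaller in siMITF than in siCTRL cells.

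RAB27A, the GTPase that tethers melanosomes to the actin transport machinery, had 114, 119 and 109 TPM in siCTRL, 118, 134 and 131 with IFNγ, 29.0, 29.7 and 26.8 with siMITF, and 49.6, 48.0 and 51.6 in the combination. IFNγ thus changed it by 0.16 in siCTRL and 0.78 in siMITF cells (interaction 0.62 ± 0.10 (SE), limma adjusted p = 0.0136), with an adjusted p of 0.0514 without siCTRL replicate 1 and 0.0612 without siMITF replicate 3. CAPN3 and RAB27A were the 2 calls among 31 melanocytic genes, whose median was -0.0123. The pigment genes PMEL (-0.01), DCT (0.07), TYRP1 (-0.09) and MLANA (0.17) and the lineage factor SOX10 (-0.13) were not called. Among all 340 IDs that siMITF lowered on average by at least 1 log2 unit, 11 were called positive and 5 negative, 64.4% had a positive sign and the median was 0.0947. Among the 362 raised by as much, 5 were positive and 6 negative, 40.9% had a positive sign and the median was -0.0920. The 326 lowered by siMITF and without an average IFNγ effect of this size had a median of 0.0959 with 65.3% positive. Values of lowered genes near 0 TPM are compressed by the pseudocount. An M-box (TCATGTG) was in the promoter of 1 of 35 positive genes (2.86%) and 1 of 18 negative genes (5.56%), against 1.70% of all tested, and an E-box (CACGTG) in 4 of 35 (11.4%), against 10.5%.

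Leaving out the 4 libraries numbered 2 ended part of the positive calls. The limma adjusted p was then 0.344 for PSMB10, 0.256 for CXCL11, 0.25 for HLA-B, 0.206 for TNFRSF14, 0.176 for RAB27A, 0.163 for C4B and for ISG20, 0.135 for GBP2, 0.1 for PARP9, 0.094 for HLA-F, 0.0929 for SERPING1, 0.0862 for CEACAM1, 0.073 for APOL3 and 0.051 for APOL2. It was 0.0128 for CXCL9, 0.0179 for GBP4, 0.0219 for TNFSF13B and CAPN3, 0.0237 for CD74, 0.0269 for IL32 and CD274, 0.0355 for CXCL10 and 0.0468 for ATOH8.

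**Figure D4:**
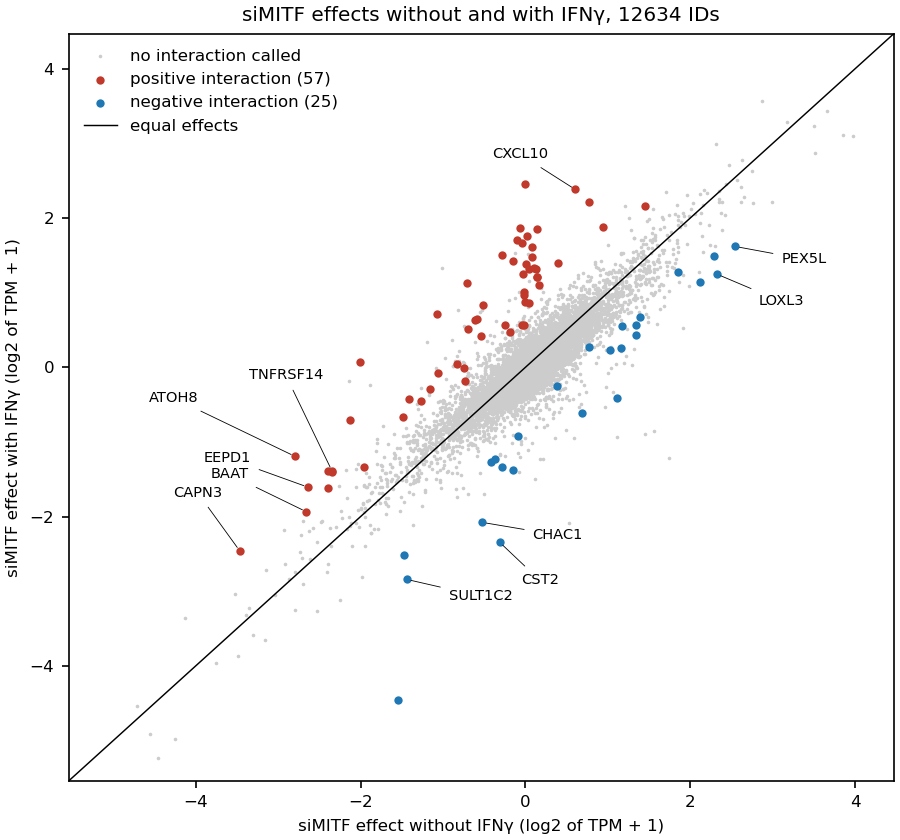
Each point is 1 of 12634 tested Ensembl IDs, with the siMITF effect without IFNγ on the horizontal and with IFNγ on the vertical axis, in log2 of TPM + 1. CAPN3, BAAT, EEPD1, ATOH8 and TNFRSF14 are lowered in both conditions and lie above the line of equal effects. LOXL3 and PEX5L are raised in both and lie below it.

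Some positive genes responded to IFNγ in siMITF cells only, as far as the test goes, and they are named here after their values were seen. The fatty acid-binding protein FABP7, a glial and melanoma marker, was at 197, 195 and 181 TPM in siCTRL, 218, 200 and 206 with IFNγ, 111, 117 and 114 with siMITF, and 226, 206 and 187 in the combination. The siMITF libraries were all below the 9 others (interaction 0.73 ± 0.11 (SE), limma adjusted p = 0.0069). Others of this class were BAAT, CPNE5, GK, IVNS1ABP, JAM2, RAB27A, TNFRSF14 and the ID paired with it. PDK4, a kinase that restrains glucose oxidation, fell by 0.96 on the log2 scale with IFNγ in siCTRL and by 0.29 in siMITF cells, with an interaction of 0.67 (limma adjusted p = 0.0136).

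Of the 25 negative IDs, 9 rose with IFNγ with either siRNA, 8 rose only in siCTRL cells, 7 fell only in siMITF cells and 1 fell in both. On the TPM scale the combined mean fell short of the sum of the single effects in 22 of the 25, while 41.6% of all tested IDs exceeded it. This count uses the contrast that chose the 25 and is a description. IFITM3 was among the exceptions. CHAC1, an enzyme that degrades glutathione and a target of the integrated stress response (chromosome 15 from 40952962 to 40956512), had 6.78, 8.20 and 6.25 TPM in siCTRL, 30.5, 32.8 and 30.8 with IFNγ, 4.58, 5.52 and 3.83 with siMITF, and 6.58, 6.76 and 6.65 in siMITF + IFNγ. The combination overlapped with untreated siCTRL, far below siCTRL + IFNγ. The IFNγ effect was 2.01 in siCTRL and 0.45 in siMITF cells, an interaction of -1.56 ± 0.17 (SE, limma adjusted p = 6.4e-04). It was the 1 call among 17 integrated stress response genes, whose median was 0.0319. The transcription factors ATF4 (-0.09), DDIT3 (0.19) and ATF3 (0.23) and the asparagine synthetase ASNS (0.15) were not called, and the serine synthesis enzyme PHGDH (-0.45) was called with the block (limma adjusted p = 0.521, and 0.0220 with it).

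Other negative genes rose less with IFNγ in siMITF than in siCTRL cells, or did not pass the test in siMITF cells. CST2, a secreted inhibitor of cysteine proteases, had 1.06, 0.484 and 0.750 TPM in siCTRL, 7.44, 5.97 and 5.28 with IFNγ, 0.376, 0.356 and 0.505 with siMITF, and 0.590, 0.103 and 0.602 in the combination. Both siMITF conditions overlapped near 0 (interaction -2.04 ± 0.24 (SE), limma adjusted p = 0.0014), and with a pseudocount of 0.1 the adjusted p was 0.0560. SULT1C2, a cytosolic sulfotransferase, had 20.2, 18.7 and 18.8 TPM with IFNγ in siCTRL and 1.77, 1.91 and 1.79 in siMITF cells, against 2.60, 3.78 and 2.67 and 0.309, 0.621 and 0.497 without it. All 4 conditions were apart, with the lowest level in siMITF, and the interaction of -1.40 (limma adjusted p = 0.0018) had an adjusted p of 0.396 with a pseudocount of 0.1. C2orf80 had 3.40, 3.20 and 3.06 TPM with IFNγ in siCTRL and 0.735, 0.570 and 0.568 in siMITF cells (interaction -1.23, limma adjusted p = 0.0014, and 0.468 with a pseudocount of 0.1). The largest negative value, -2.91, belonged to the ID ENSG00000278167, without a symbol, with 48.1, 52.0 and 47.5 TPM with IFNγ in siCTRL and 0.792, 1.89 and 1.30 in siMITF cells. The largest positive value, 2.45, was that of ENSG00000226260, also without a symbol, which was listed at 0 in every untreated library and had 1.96, 2.86 and 2.08 TPM with IFNγ in siCTRL and 15.3, 20.1 and 15.8 in siMITF cells. In all, 9 of the 57 positive and 2 of the 25 negative IDs had no symbol. These IDs were not members of any list, and whether they are copies of named genes was not determined.

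Better expressed negative genes were less dependent on the pseudocount. KDM1A, the histone demethylase LSD1 (chromosome 1 from 23019443 to 23083689), had 119, 129 and 121 TPM in siCTRL, 197, 227 and 218 with IFNγ, 88.5, 94.5 and 91.5 with siMITF, and 83.2, 88.3 and 92.6 in the combination. IFNγ raised it in siCTRL cells with no overlap, while both siMITF conditions overlapped (interaction -0.85 ± 0.10 (SE), limma adjusted p = 0.0014). RALA, a Ras-related GTPase, had 198, 218 and 194 TPM with IFNγ in siCTRL cells and 93.3, 83.0 and 82.5 in siMITF cells, against 80.5, 87.9 and 83.5 and 64.8, 66.7 and 63.4 without it (interaction -0.86 ± 0.10 (SE), limma adjusted p = 0.0014). The DNA methyltransferase DNMT3B had 6.53, 6.81 and 7.31 TPM in siCTRL, 10.3, 14.0 and 11.8 with IFNγ, 5.30, 5.66 and 5.44 with siMITF, and 3.51, 4.43 and 4.56 in the combination. Its 3 combined libraries lay below the 9 others, as did those of 3 of the 25 negative IDs and 5.71% of all tested, which is a description (interaction -1.04 ± 0.17 (SE), limma adjusted p = 0.0115). BLCAP had 30.3, 29.99 and 31.7 TPM with IFNγ in siCTRL and 19.3, 22.7 and 17.2 in siMITF cells, against 14.7, 11.0 and 9.16 and 17.3, 21.0 and 18.6 without it (interaction -1.30, limma adjusted p = 0.0113). Without the 4 libraries numbered 2, the adjusted p was 0.0869 for KDM1A, 0.0819 for RALA, 0.255 for DNMT3B and 0.219 for BLCAP. It was 0.295 for IFITM3, 0.121 for C2orf80, 0.503 for LOXL3, 0.515 for CHST2 and LMO2, 0.314 for NDST3, 0.272 for VSTM2L, 0.27 for NREP, 0.16 for PEX5L and 0.151 for IGFBP2, while CHAC1 (0.0219), SULT1C2 (0.0244) and CST2 (0.0468) kept the call.

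Some negative genes were raised by siMITF, and IFNγ lowered part of these in siMITF cells while others gained less there. LOXL3, a lysyl oxidase-like enzyme that crosslinks collagen, had 0.466, 0.461 and 0.454 TPM in siCTRL, 0.348, 0.501 and 0.295 with IFNγ, 6.41, 6.77 and 5.79 with siMITF, and 1.57, 2.49 and 2.92 in the combination. The siCTRL conditions overlapped, and the siMITF conditions did not. Its interaction was -1.07 ± 0.20 (SE, limma adjusted p = 0.0290), and the call held only without an siMITF + IFNγ library, with an adjusted p of up to 0.0979 without each of the 9 other libraries. The peroxin-related PEX5L had 7.69, 7.94 and 7.48 TPM with siMITF and 2.40, 3.24 and 2.99 in the combination, against at most 0.605 in siCTRL cells (interaction -0.93 ± 0.15 (SE), limma adjusted p = 0.0130, with 0.0525 without siCTRL replicate 3 and 0.0533 without siMITF replicate 2). VSTM2L (-0.98), NDST3 (-0.77), a heparan sulfate sulfotransferase, and CHST2 (-0.80) also had their highest level in siMITF alone. LMO2 (-0.80), NREP (-0.72) and the metallothionein MT2A (-0.56) were also raised by siMITF and gained fewer log2 units from IFNγ there than in siCTRL cells. IGFBP2, a binding protein of insulin-like growth factors, had 75.8, 83.3 and 68.3 TPM in siCTRL, 142, 163 and 146 with IFNγ, 101, 96.6 and 98.9 with siMITF, and 124, 127 and 128 in the combination. The combination lay between siMITF alone and siCTRL + IFNγ (interaction -0.63, limma adjusted p = 0.0234), and its call was lost without 8 of the 12 libraries in turn, with an adjusted p of up to 0.0904.

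**Figure D5:**
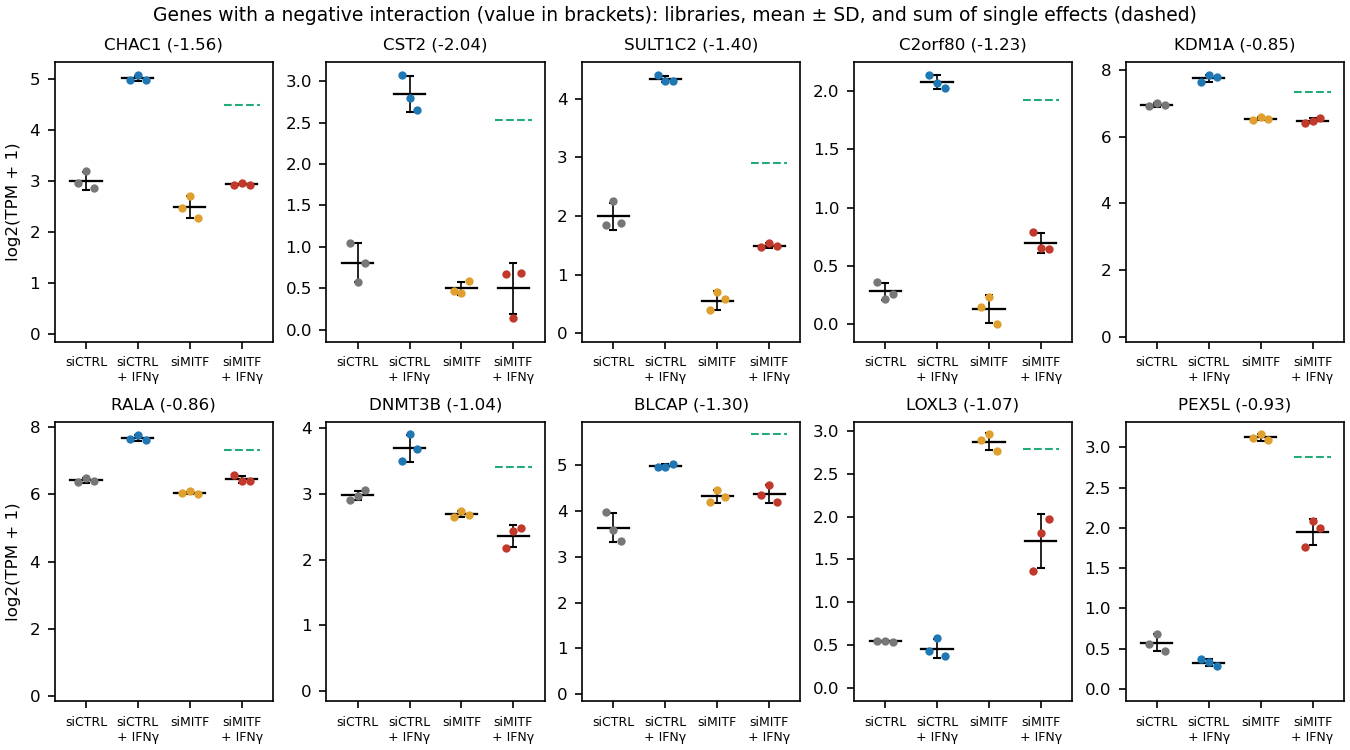
Log2(TPM + 1) of 10 genes with a negative interaction in the 3 libraries of each condition, with the mean and SD (bars) and, as a dashed line, the sum of both single log2 effects. The siMITF + IFNγ points lie below the dashed line in all 10 panels. For CST2, KDM1A and BLCAP they overlap with siMITF alone, and for LOXL3 and PEX5L they lie below it.

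The promoters of the 3 negative genes with the smallest adjusted p that had one in the table are printed for comparison with those of the positive genes. They lie at chr15:40953221-40953520 on the plus strand for CHAC1, chr1:23019218-23019517 on the plus strand for KDM1A and chr2:208189981-208190280 on the minus strand for C2orf80. The CHAC1 window begins inside the GENCODE span of the gene, which starts at 40952962. The letters of the 4 motifs were absent from the windows of CHAC1 and KDM1A, and C2orf80 held an E-box, in capitals, 177 bases before the RefSeq start.
CHAC1: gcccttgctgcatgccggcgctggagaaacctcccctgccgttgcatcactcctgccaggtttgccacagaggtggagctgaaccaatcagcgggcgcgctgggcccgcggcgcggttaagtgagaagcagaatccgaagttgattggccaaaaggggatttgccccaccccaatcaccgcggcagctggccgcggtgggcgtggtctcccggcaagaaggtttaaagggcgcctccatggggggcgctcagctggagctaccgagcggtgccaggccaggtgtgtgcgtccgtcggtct
KDM1A: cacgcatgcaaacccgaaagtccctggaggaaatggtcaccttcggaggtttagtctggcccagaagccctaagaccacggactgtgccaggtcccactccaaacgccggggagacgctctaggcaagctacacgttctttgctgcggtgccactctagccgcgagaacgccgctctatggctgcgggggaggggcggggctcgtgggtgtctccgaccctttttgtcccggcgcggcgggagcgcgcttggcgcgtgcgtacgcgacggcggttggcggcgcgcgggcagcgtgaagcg
C2orf80: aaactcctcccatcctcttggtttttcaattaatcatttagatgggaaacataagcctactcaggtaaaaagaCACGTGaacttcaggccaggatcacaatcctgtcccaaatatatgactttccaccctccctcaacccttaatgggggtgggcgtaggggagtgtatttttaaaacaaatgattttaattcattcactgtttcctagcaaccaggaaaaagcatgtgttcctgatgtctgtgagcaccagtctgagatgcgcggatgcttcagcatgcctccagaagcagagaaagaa

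In the remaining lists few or no genes were called. Signs are to be read beside those of all tested IDs, of which 41.8% were positive. Of 24 proliferation genes 0 were called in either direction, but 21 had a negative sign and the median was -0.273. The 3 others were positive, and among them the cyclin CCNA2 had the largest absolute value of the list, 1.01. With the block the mitotic cyclin CCNB2 (-0.40) was called negative (limma adjusted p = 0.0170). The mitotic kinase PLK1 had 140, 143 and 147 TPM in siCTRL, 86.1, 121 and 111 with IFNγ, 174, 194 and 180 with siMITF, and 69.2, 112 and 106 in the combination. It was highest in siMITF alone, with overlap of the treated conditions, and its interaction of -0.51 had a limma adjusted p of 0.660. Of 18 genes of the undifferentiated state and the AP-1 factors, LOXL3 was the 1 call. With the block the AP-1 factor FOSL1 (-0.45) and the matrix protein TNC (-0.63) were called negative and IGFBP5 (0.69) positive. No gene was called in either fit among 15 cell death, 14 NF-κB, 19 cholesterol synthesis, 20 lysosomal, 17 matrix and adhesion and 13 mitochondrially encoded genes, whose medians lay between -0.0732 and 0.127. All 13 mitochondrially encoded genes had a positive sign, from 0.0211 to 0.229.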

How the data were processed

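Per the labels and the paper's methods, the authors isolated total RNA, sequenced TruSeq libraries, used Trimmomatic 0.39 for trimming and kallisto for quantification against Ensembl transcripts of GRCh38 (release not given in the sources used here), and deposited TPM per gene and library. The authors tested counts with DESeq2 1.26.0; counts were not used here. TPM keep no depth, so no counting error is given, and genes without signal are described as listed at 0.

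IDs averaging 2 TPM or more in siCTRL, siCTRL + IFNγ or siMITF were tested on log2(TPM + 1) with limma 3.58.1 in R 4.3.3, with a mean for each condition, an intensity trend in the empirical Bayes step, two-sided tests and Benjamini-Hochberg adjustment over 12634 IDs. Called means an adjusted p under 0.05. Values are the estimate ± SE. Adjusted p-values of single effects come from the same fit. The 2 IFNγ effects share no library. Comparisons of siMITF without and with IFNγ share none either. Symbols and positions are from GENCODE 44, which gave no symbol for 786 tested IDs, and 509 tested IDs shared identical values with another ID. The fit was tested on simulated data.

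Named genes were the 20 positive and 20 negative genes with a symbol and the largest absolute interaction, members of 23 lists (444 genes), and genes the study names. Some genes are not reported here by name; counts and medians include them. Members and lists were chosen with earlier results of these data known.

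Replicate numbers were checked for pairing: after subtraction of condition means, the 18 pairs with the same number correlated across IDs from 0.104 to 0.631, and the 36 pairs with different numbers had a median of -0.201. This was taken as pairing of the libraries, which the labels do not state. Subtracting condition means itself pushes pairs with different numbers below 0 when pairs with the same number are above it. The main fit and its calls leave the pairing out, and a blocked fit was made as an alternative. Other alternatives were pseudocounts of 0.1, 0.5 and 5, other filters, quantile normalization, centring, removal of mitochondrially encoded genes, no trend, array weights, IDs with identical values counted once, TPM summed by symbol, an adjusted p under 0.01 and each library left out. Leaving out the 4 libraries numbered 2 was chosen after seeing the data. Figures were drawn with matplotlib 3.10.9 and pandas 2.3.3 in Python 3.11.15.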

Additional observations from a re-analysis of the deposited data

Results flagged for a closer look

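The IFNγ effect differed between siMITF and siCTRL cells, by the interaction term of limma with an adjusted p under 0.05, for 57 IDs in the positive and 25 in the negative direction. These are the genes described above, and the difference itself was what was tested. No group of 4 or more libraries allowed a check for single deviating libraries.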

How the results depend on the processing

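Counts are given as all, positive and negative IDs called, against 82, 57 and 25. They were 125, 79 and 46 with a pseudocount of 5, 141, 102 and 39 without a filter on low values, 121, 90 and 31 with the minimum of 2 TPM in any condition, and 65, 49 and 16 with a mean of at least 5 TPM. They were 251, 183 and 68 after quantile normalization, 225, 153 and 72 after centring each library on its median, 186, 132 and 54 without mitochondrially encoded genes, and 34, 26 and 8 at an adjusted p under 0.01. With array weights, whose estimation did not converge, they were 846, 402 and 444, so that 47.5% were positive instead of 69.5%. Leaving out 1 library gave 50 to 87, 35 to 66 and 12 to 28. Leaving out the 4 libraries numbered 2 gave 24, 18 and 6, of which 23 were among the 82. IDs with an absolute interaction of at least 1 numbered 42, against 23 with a pseudocount of 5, 89 with array weights, 26 at an adjusted p under 0.01, 23 without the libraries numbered 2, and 30 to 48 without 1 library. The causes were not tested, beyond the smaller number of libraries in the last fits.

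In the fit with the replicate block, the counts were 248, 150 and 98. The 82 remained called and no named call was lost.

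Of 53 called genes followed by name, 10 kept their call in all alternatives that gave a value, 32 kept it without each library in turn, and 1 reversed: CXCL10, at -0.0301 with a pseudocount of 0.1. Of 32 named genes that were not called, 27 were called in some alternative and 5 reversed: IDO1 (-0.476 with a pseudocount of 0.1), CCL2 and TNC (0.00956 and 0.222 with a pseudocount of 5), MITF (-0.0530 without siCTRL + IFNγ replicate 1, up to 0.320 without siMITF + IFNγ replicate 1) and HLA-E. Without 1 library HLA-E ran from -0.149 to 0.0452. HLA-E was 0.0569 with array weights, 0.0287 without siCTRL replicate 1, 0.0131 without siCTRL + IFNγ replicate 2, 0.0147 without siMITF replicate 2, 0.0452 without siMITF + IFNγ replicate 1 and 0.0155 without the libraries numbered 2.

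These results are limited to 3 libraries per condition in 1 cell line. Depth is unknown, so counting error of low values is too. Genes near 0 TPM in untreated cells have interactions that move with the pseudocount. The calls of HLA-B and GBP2, with a few TPM in untreated cells, also depended on it.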
